A study of Mustela putorius furo with 7 samples.

Results

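GL896901, GL896904, GL896923 and GL896929 are 4 long scaffolds of the ferret assembly MusPutFur1.0, that is, stretches of assembled sequence to which the deposited files give no chromosome. Every region of open chromatin on them in the deposited matrix was taken, which gave 4095 of 95129 regions (4.3%). The scaffolds had been picked because the median signal of their regions was lower in CFTR-knockout (CF) than in wild-type (WT) cultures. That lower signal is therefore described and not tested, and the question followed here is its extent: whether it ran along the whole length of each scaffold or stopped at borders, whether each library carried it, and which regions went the other way. GL896901 held 1371 regions between positions 67 and 34387246, GL896904 held 1275 between 28654 and 30346903, GL896923 held 878 between 196000 and 15882324, and GL896929 held 571 between 3956 and 14797135.

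The cultures were polarized pancreatic ductal epithelia (PDE) grown from the pancreata of newborn ferrets aged 1 to 3 days, either WT or with both CFTR copies knocked out. Cells of both genotypes went through 10 passages and were then polarized for 14 days at an air-liquid interface. About 50000 cells of a culture entered the transposition, followed by 12 cycles of PCR. The labels number 3 CF and 4 WT donors, whereas the methods give an equal number for both genotypes, so the 4 WT libraries may not be 4 independent donors, and any p-value reflects variation among libraries. Passaging was meant to leave a uniform duct cell population, and since the regions carry no gene names here, duct cell markers could not be checked.

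ATAC-seq reads chromatin accessibility through a transposase that cuts and tags DNA where nucleosomes leave it exposed, as at active promoters and enhancers. Accessibility can differ between cells at single elements or over long domains that hold many elements. CFTR is the chloride and bicarbonate channel of the apical membrane of duct cells, and its loss damages the pancreas early in cystic fibrosis.

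Each value of the matrix was a signal equal to a whole number of reads times a factor fixed for each library. Reads in regions ran from 8469877 to 11047724 in the CF libraries and from 3226534 to 8172005 in the WT libraries, so depth moved with genotype. A single scaffold of 5 regions, GL897838, took 7.15% to 8.97% of the reads in CF and 13.0% to 22.6% in WT, and it was left out of the total when shares of reads were formed. Over the regions of all other scaffolds the median change, CF minus WT of the mean log2(signal + 1), was 0.05. Changes of regions, windows and scaffolds are given relative to that value, called the rest, and fold changes of single regions are given as fitted.

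All 4 scaffolds lay below the rest in CF. The median change was −0.36 on GL896901, −0.49 on GL896904, −0.54 on GL896923 and −0.57 on GL896929 on the log2 scale, which correspond to CF to WT ratios of 0.78, 0.714, 0.688 and 0.674. For comparison, the 36 other scaffolds with at least 571 regions had median changes between −0.149 and 0.115, so the nearest scaffold of like size outside the group stood at −0.149. That gap is largely fixed by how the 4 scaffolds were picked, and scaffolds with fewer regions were left out of it. What lowered the signal was not tested. Even if it was lower accessibility, bulk chromatin cannot tell a smaller share of cells with an open region from less opening in every cell.

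The level of each library on a scaffold was taken as the median over its regions of the log2 signal, after centring each region on its mean over the 7 libraries and each library on the rest. On GL896901 the CF libraries stood at −0.15, −0.26 and −0.23 and the WT libraries at 0.15, 0.20, 0.21 and 0.20. On GL896904 the levels were −0.28, −0.30 and −0.28 in CF and 0.17, 0.28, 0.22 and 0.20 in WT. CF replicate 1 was the least low of the CF libraries on GL896901. On GL896923 it was the lowest, with levels of −0.37, −0.27 and −0.27 in CF and of 0.10, 0.33, 0.23 and 0.28 in WT. GL896929 had −0.35, −0.32 and −0.26 in CF and 0.12, 0.27, 0.22 and 0.34 in WT. The genotypes did not overlap on any of the 4 scaffolds, and WT replicate 1 was the lowest WT library on each. Taken pair by pair, 12 of 12 CF to WT comparisons were lower in CF on every scaffold, from −0.30 at the smallest to −0.68 at the largest.

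**Figure D1:**
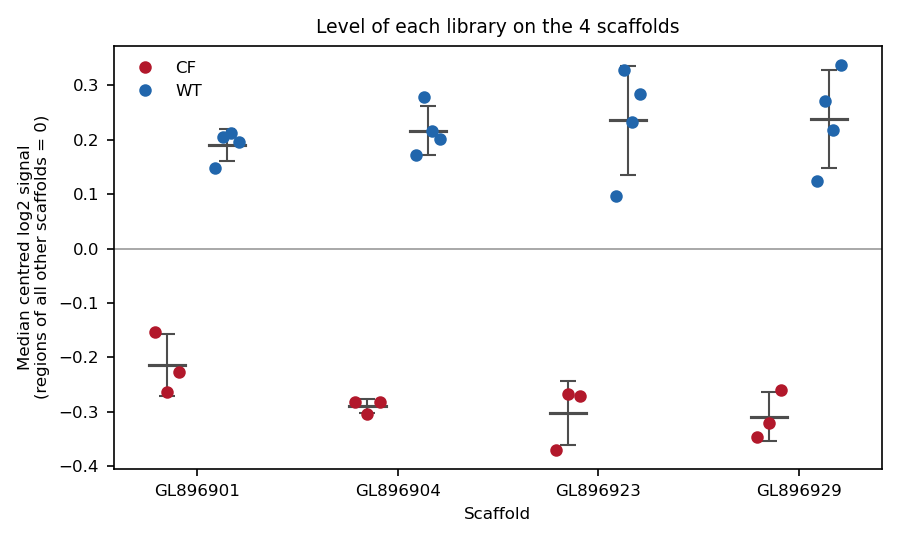
The level of each library on each of the 4 scaffolds, as the median centred log2 signal relative to the regions of all other scaffolds at 0. Points are libraries, horizontal lines are genotype means and bars are ± 1 SD (n = 3 CF and n = 4 WT). Every CF library lies between −0.37 and −0.15 and every WT library between 0.10 and 0.34.

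Depth differed between the genotypes, and thinning every library to the reads of the shallowest left the median changes at −0.33, −0.44, −0.48 and −0.52 in the same order of scaffolds. Setting each region against regions of other scaffolds with like signal gave −0.39, −0.50, −0.49 and −0.53.

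The lower level was a feature of most regions and not of a few extreme ones. Of the regions on GL896901, 67.3% lay below the rest, with 69.6% on GL896904, 74.8% on GL896923 and 73.9% on GL896929. Over the 4 scaffolds this came to 70.5%, beside 50.9% of all regions, and since the same values chose the scaffolds nothing is read from the difference. The middle 50% of regions ran from −1.02 to 0.12 on the 4 scaffolds and from −0.50 to 0.58 elsewhere.

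The lower level was present in nearly every class of regions examined. Against regions of the same class elsewhere, the median change was −0.58 in the lowest of 3 classes of signal, −0.39 in the middle class and −0.47 in the highest. Among the 1050 regions with a peak in all 7 lists it was −0.45, and 82.7% of them lay below their class. Regions of at least 1000 bp stood at −0.50 and regions under 300 bp at −0.41. The 407 regions with peaks in CF lists alone still lay at −0.33 against their class elsewhere, although by their own nature they were higher in CF, at 1.05. The 629 regions with peaks in WT lists alone lay at −0.24, with an exception on GL896929, where 84 such regions stood at 0.16.

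The lower level can also be given as shares of reads and of peaks. Reads were recovered from the matrix values that chose the scaffolds, so their shares describe the same shift and add no separate support. In CF, GL896901 took 1.05% ± 0.01 of the reads (SD over 3 libraries), against 1.33% ± 0.08 in WT (SD over 4 libraries). On GL896923 the shares were 0.87% ± 0.05 and 1.15% ± 0.11, and on GL896929 they were 0.489% ± 0.02 and 0.679% ± 0.07. On each of the 3 scaffolds the highest CF library was below the lowest WT library. Peak lists of single libraries, which the authors called without the matrix, placed 1.37% ± 0.03 of their peaks on GL896901 in CF and 1.60% ± 0.04 in WT. The shares on GL896904 were 1.18% ± 0.01 and 1.49% ± 0.05, those on GL896923 were 0.821% ± 0.02 and 1.03% ± 0.04, and those on GL896929 were 0.596% ± 0.03 and 0.727% ± 0.02. The 3 CF lists lay below the 4 WT lists on each scaffold, and the lists come from the same libraries as the matrix.

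GL896904 stood apart in reads because of a single region of 515 bp at positions 24071810 to 24072324. Its signal was 73884, 58227 and 65959 in the CF libraries and 122517, 130606, 307568 and 243713 in the WT libraries, while the next highest signal on that scaffold was 1553. Reads of this region made up 49.5% to 55.1% of those of GL896904 in CF and 58.7% to 76.3% in WT. With it, the scaffold took 2.13% ± 0.12 of the reads in CF and 4.26% ± 1.02 in WT, a ratio of 0.499. Without it the shares were 1.02% ± 0.01 and 1.38% ± 0.09, a ratio of 0.739, close to those of the other 3 scaffolds, which were 0.795, 0.759 and 0.72. The median change of GL896904 does not rest on this region, since a median over 1275 regions gives it the weight of any other.

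To follow the lower signal along each scaffold, regions were grouped in fixed windows of 1 Mb counted from the scaffold start, and windows with at least 10 regions were kept. This gave 95 windows, of which 35 were on GL896901, 31 on GL896904, 15 on GL896923 and 14 on GL896929, and 2 further windows held too few regions. The median change was below the rest in 85 of the 95 windows, beside 1024 of 2234 windows (45.8%) on all other scaffolds. By scaffold the lower windows were 30 of 35, 27 of 31, 14 of 15 and 14 of 14. In 65 windows (68.4%) every CF library was also below every WT library, beside 12.8% of the 2329 windows of all scaffolds, which include these 95. The share was 48.6% on GL896901, 77.4% on GL896904, 80.0% on GL896923 and 85.7% on GL896929. No window had every CF library above every WT library, beside 10.9% of all windows. The rule that chose the scaffolds used these values, so the counts describe their spread along the length only.

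**Figure D2:**
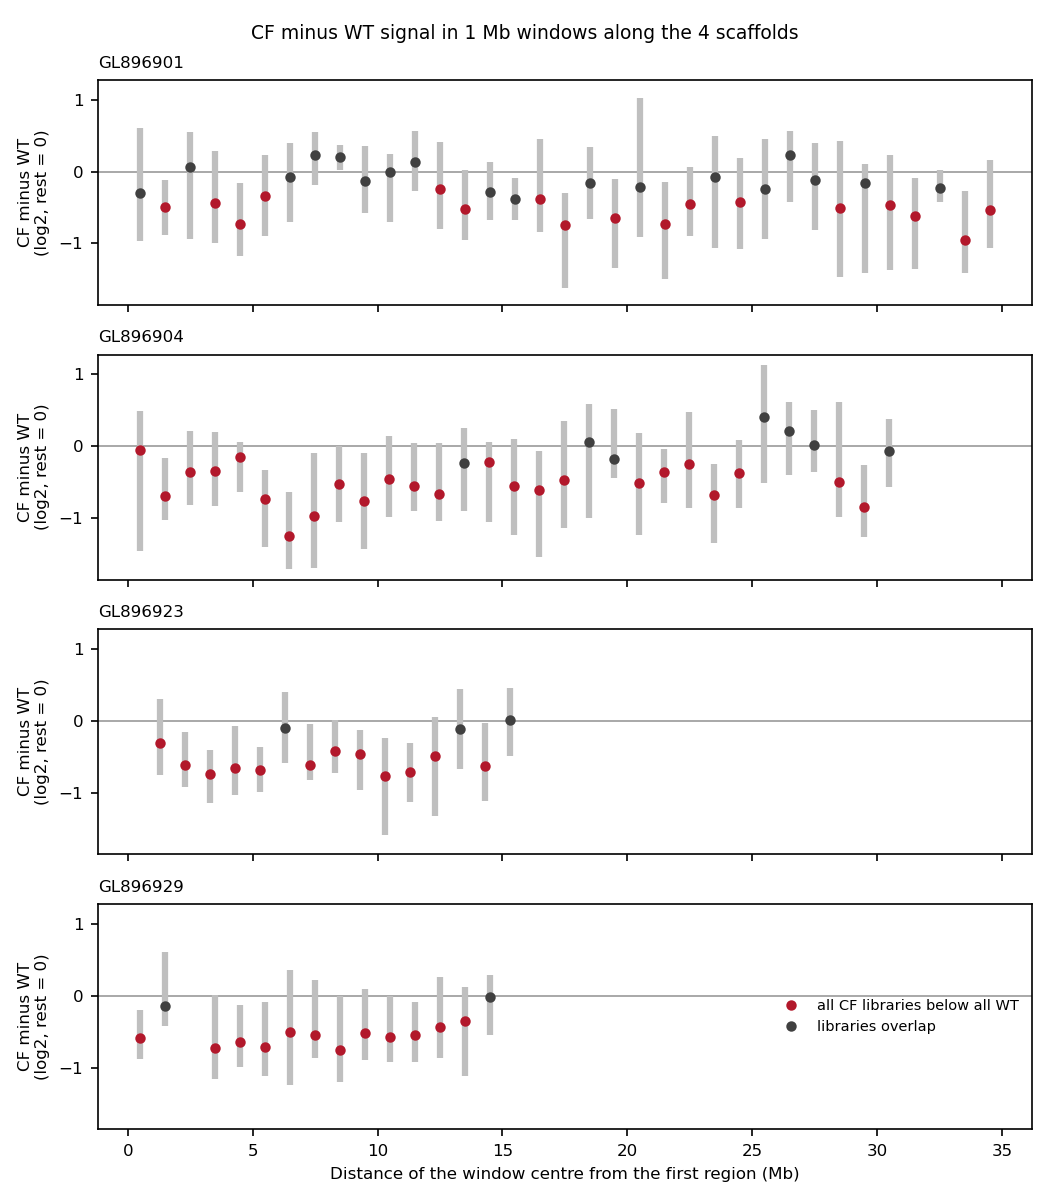
CF minus WT change (log2, rest at 0) in 1 Mb windows against the distance from the first region of each scaffold. Points are window medians, grey bars span the middle 50% of regions, and red points mark the 65 windows in which all CF libraries lay below all WT libraries. On GL896929 all 14 windows lie under 0, whereas GL896901 and GL896904 cross 0 in 5 and 4 windows.

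The median of the window values was −0.29 on GL896901, −0.45 on GL896904, −0.61 on GL896923 and −0.55 on GL896929. The lowest window of GL896901, from 33 to 34 Mb, had a change of −0.95, with levels of −0.15, −0.83 and −0.40 in CF and of 0.43, 0.48, 0.22 and 0.15 in WT. On GL896904 the lowest window lay from 6 to 7 Mb, at −1.25, and 28 of its 29 regions were below the rest. Its CF libraries stood at −0.82, −0.69 and −0.50 and its WT libraries at 0.42, 0.58, 0.37 and 0.77. The adjoining window, from 7 to 8 Mb, was the next lowest of the scaffold, at −0.97. The lowest window of GL896923, from 10 to 11 Mb, stood at −0.77, and that of GL896929, from 8 to 9 Mb, at −0.75. The genotypes did not overlap in any of these windows.

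At the other end of the range, GL896904 had the highest window of the 4 scaffolds, from 25 to 26 Mb, with a change of 0.41. Its levels were 0.35, 0.18 and 0.30 in CF and −0.07, 0.18, −0.50 and −0.18 in WT, so that CF replicate 2 and WT replicate 2 overlapped. The highest window of GL896901, from 26 to 27 Mb, stood at 0.24 with overlapping libraries, but at −0.20 against regions of like signal. The highest windows of GL896923, from 15 to 16 Mb at 0.02, and of GL896929, from 14 to 15 Mb at −0.01, were the last of their scaffolds. Against regions of like signal, 88 of the 95 windows were below the rest, beside 49.2% of windows elsewhere.

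The windows of GL896901 and GL896904 were spread more widely than those of the other pair. The SD over windows was 0.29 on GL896901, 0.35 on GL896904, 0.25 on GL896923 and 0.21 on GL896929. The 36 other scaffolds of like size had SDs from 0.0896 to 0.352 with a median of 0.226, and 4, 1, 13 and 19 of them exceeded the 4 scaffolds in turn.

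Library by library, the lower windows were shared. CF replicate 1 was below the rest in 75 of 95 windows, CF replicate 2 in 91 and CF replicate 3 in 90. The WT libraries were below it in 18, 19, 12 and 22 windows. Of the 2234 windows elsewhere the CF libraries were below it in 984, 1137 and 1029. The WT libraries were below it there in 1005, 1138, 1194 and 1171. Most windows of the 4 scaffolds in which CF replicate 1 stood above the rest were on GL896901, at 14 of 35. CF replicates 2 and 3 each had 2 on that scaffold. On GL896923 and GL896929 it was above the rest in 1 of 15 and in 0 of 14 windows.

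**Figure D3:**
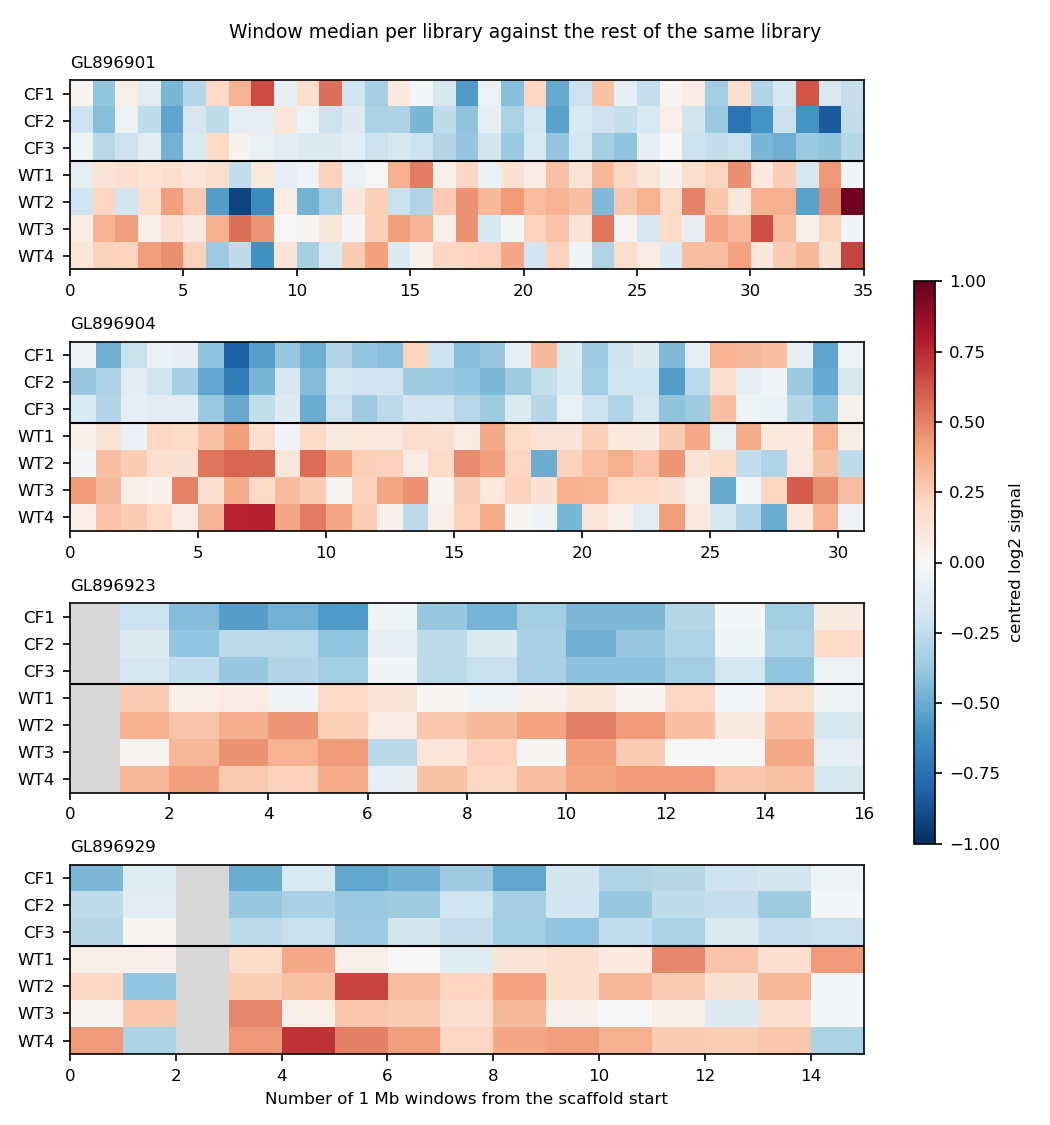
The level of each library in each 1 Mb window (centred log2 signal, blue below and red above the rest of the same library), with the 3 CF libraries above the black line and the 4 WT libraries under it. Grey windows held fewer than 10 regions, and colours saturate at −1 and 1. CF rows are mostly blue and WT rows mostly red along the length, and mixed colours gather near window 7 of GL896901, near window 25 of GL896904 and at the end of GL896923.

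Windows that held many regions were lower than windows that held few. All 49 windows with at least 40 regions were below the rest, with a median of −0.52, and in 45 of them (91.8%) the libraries did not overlap. Of windows elsewhere with as many regions, 58.5% were below the rest and 13.4% were so without overlap. Of the 33 windows with 20 to 39 regions 28 were below the rest, beside 42.8% of such windows elsewhere, with a median of −0.35. Only 8 of the 13 windows with 10 to 19 regions were, with a median of −0.01. The same order was present elsewhere, where windows of these classes had medians of −0.04, 0.05 and 0.18, and 24.0% of the sparsest windows were below the rest. Across the 95 windows the change correlated with the number of regions (Pearson r = −0.46) and with the median signal (r = −0.47), and across windows elsewhere the first of these was −0.26. These correlations are a description, since neighbouring windows share scaffold, libraries and depth.

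**Figure D4:**
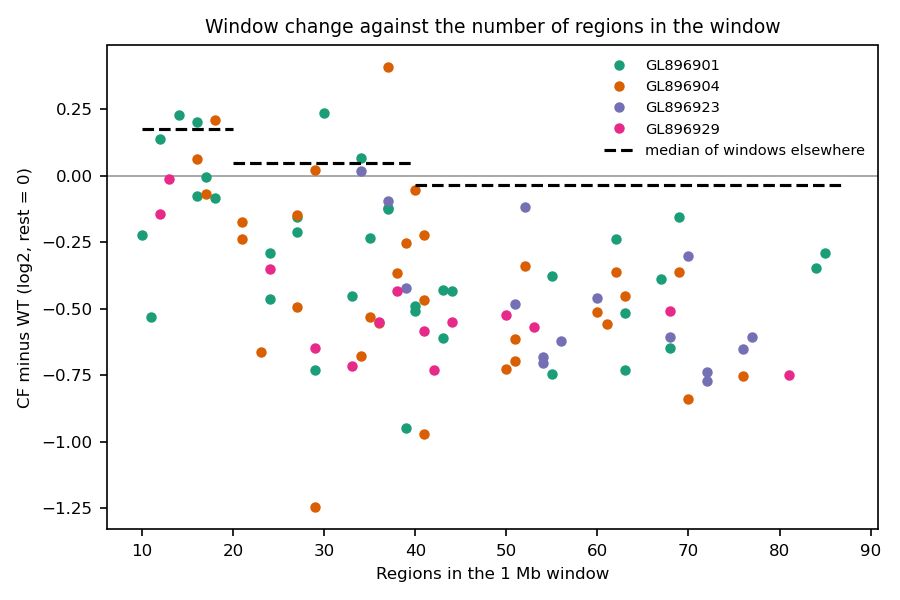
CF minus WT change (log2, rest at 0) of each 1 Mb window against the number of regions it holds, with a colour for each of the 4 scaffolds. Dashed lines are medians of windows on all other scaffolds holding 10 to 19 (0.18), 20 to 39 (0.05) or at least 40 regions (−0.04). All 49 windows with at least 40 regions lie under 0.

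Borders were sought as the single split of a scaffold, with at least 20 regions on either side, that took most from the sum of squares of the change. The position was chosen from the values, so it has no test. On GL896901 the strongest split fell between 16743037 and 16755385, with a median of −0.28 before it and −0.49 after it. On GL896904 it fell between 17223432 and 17273114, with −0.58 before and −0.35 after. On both of these scaffolds the genotypes did not overlap on either side of the split, so the lower CF signal ended on neither side. A difference between the sides is fixed by how the split was placed. The splits accounted for 1.16% and 1.72% of the sum of squares, within the range of 0.265% to 3.66% over the 36 other scaffolds of like size.

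The remaining pair had their strongest splits near the end. On GL896923 it fell between 15486509 and 15532912 and accounted for 2.31% of the sum of squares. The 854 regions before it had a median of −0.57, with all CF libraries below all WT libraries. The 24 regions after it, spanning 0.35 Mb, had a median of 0.33, with levels of 0.18, 0.37 and −0.05 in CF and of −0.03, −0.20, −0.15 and −0.19 in WT. CF replicate 3 overlapped the WT libraries there. On GL896929 the split fell between 13325894 and 13334567, where a median of −0.59 over 551 regions gave way to 0.05 over the last 20. These 20 regions are the fewest allowed on a side, so the search could not place the split later, and their mean was −0.06. It accounted for 0.66% of the sum of squares. After that split the CF libraries stood at 0.08, −0.01 and −0.10 and the WT libraries at 0.44, 0.01, −0.01 and −0.18, which overlapped. The shares of both splits lay within the range of 0.265% to 3.66% over the 36 other scaffolds of like size, whose median was 1.08%.

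At their starts these scaffolds were low, with changes of −0.96 and −0.59 over the first 1 Mb of regions on GL896923 and GL896929. The value of GL896923 rested on 14 regions with a median log2 signal of 3.88. Its window from 1 to 2 Mb, with 70 regions, stood at −0.30. The first 1 Mb of GL896901 stood at −0.29 with overlapping libraries, and its last 1 Mb at −0.98 without overlap. On GL896904 the first 1 Mb was at −0.05, where 20 of 40 regions were above the rest. Against regions of like signal it stood at −0.22, and it held 1 opened and 9 closed regions. Its levels were −0.03, −0.38 and −0.15 in CF and 0.04, −0.01, 0.42 and 0.05 in WT, without overlap. The last 1 Mb of GL896904 was at −0.56, also without overlap.

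A difference between the beginning and the end of a scaffold is not fixed by its low median, so it was tested. For each library the median level of regions before the midpoint was compared with that after it, and the genotypes were compared by an exact permutation test (two-sided) over 35 ways to label 3 of 7 libraries as CF, whose smallest p is 0.0286. CF minus WT of this difference was 0.18 on GL896901, with values of 0.07, 0.05 and 0.16 in CF and −0.04, −0.30, 0.02 and −0.02 in WT (exact permutation p = 0.0571, adjusted over the 4 scaffolds 0.171). On GL896904 it was −0.15, with −0.17, −0.02 and −0.04 in CF and −0.04, 0.05, 0.03 and 0.24 in WT (exact permutation p = 0.0857, adjusted 0.171). The difference was −0.01 on GL896923 (exact permutation p = 0.657, adjusted 0.686) and −0.04 on GL896929 (exact permutation p = 0.686, adjusted 0.686). None passed, which does not show that beginning and end were alike. A single scaffold at the smallest p could not pass after adjustment over the 4 scaffolds.

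Within the scaffolds, 2 stretches of adjoining windows lay above the rest. On GL896901 the 30 regions from 7001213 to 8908262 had a median of 0.20, and 20 of them were above the rest. Their levels were 0.52, −0.09 and −0.04 in CF and 0.11, −0.77, 0.46 and −0.40 in WT, so both genotypes were spread widely and overlapped. The windows around this stretch were also near the rest, with overlapping libraries. They stood at −0.08 from 6 to 7 Mb, −0.13 from 9 to 10, −0.01 from 10 to 11 and 0.14 from 11 to 12 Mb. Beyond them the libraries did not overlap, at −0.35 from 5 to 6 Mb and −0.24 from 12 to 13 Mb. On GL896904 the 84 regions from 25044480 to 27976798 had a median of 0.26, and 50 of them were above the rest. There the levels were 0.32, 0.11 and 0.06 in CF and 0.08, −0.17, −0.19 and −0.26 in WT, which overlapped by CF replicate 3 and WT replicate 1. Against regions of like signal the stretch of GL896901 stood at 0.15, but that of GL896904 at −0.01. Both stretches were sparse, with 30 regions over 1.91 Mb and 84 over 2.93 Mb, beside 39.9 and 42.1 regions per Mb over the whole scaffolds. Their median log2 signal was also lower, at 4.05 and 3.61, beside 4.56 and 4.52 over the whole scaffolds.

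Runs of neighbouring regions above the rest were short. The longest held 8 regions on GL896901 (26519387 to 26749064), 12 on GL896904 (2106863 to 2219621), 8 on GL896923 (6842187 to 7030437) and 8 on GL896929 (6876557 to 7038745). Their median changes were 0.68, 0.85, 1.04 and 1.22, and these values were what defined the runs. The longest runs below the rest held 26, 31, 26 and 18 regions.

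Single regions were taken from the fit over all 95129 regions (limma on log2(signal + 1), adjusted p under 0.05 and a log2 change past 1), as opened where CF was higher and closed where CF was lower. On the 4 scaffolds 91 of 4095 regions (2.22%) were opened, beside 4.31% of all regions, and 561 (13.7%) were closed, beside 6.26% of all regions. The rule used this contrast, so nothing is read from these shares. The split between opened and closed depended on scaling. Scaling by library size alone gave 174 opened and 333 closed (beside 8.17% and 3.63% of all regions), and centring each of the 4 scaffolds on the rest before the fit gave 219 and 274 (beside 4.38% and 5.91%). Leaving out CF replicate 1, 2 or 3 lowered the opened regions to 33, 28 or 31, beside 1.55%, 1.43% and 1.46% of all regions. Closed regions then numbered 386, 407 or 388, beside 4%, 4.1% and 3.96% of all regions. Each of these fits rested on a pair of CF libraries, and the cause of the drop was not tested. Without regard to size, every CF library was above every WT library in 232 regions of the 4 scaffolds (5.67%, beside 11.5% of all regions) and below in 1147 (28.0%, beside 12.8%).

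The opened regions were spread over the scaffolds. GL896901 held 39, GL896904 26, GL896923 17 and GL896929 9. They occurred in 49 of 97 windows of 1 Mb, with at most 5 in a window, while closed regions occurred in 86 windows, with at most 21. In 45 windows both kinds occurred, and in 8 windows the opened regions outnumbered the closed. The opened regions had a median log2 change of 2.34, from 1.08 to 4.28, and the closed regions a median of −1.87 and a lowest value of −4.90. A median opened region had a log2 signal of 5.34 in CF and of 2.81 in WT, the latter near the lowest values of the matrix. The peak lists come from the same libraries as the matrix, so their match with the opened and closed calls is largely fixed by the selection. Of the 91 opened regions 70 (76.9%, beside 60.0% of opened regions elsewhere) overlapped no WT peak. In 59 (64.8%, beside 43.2%) a peak was present in every CF list and in no WT list. Of the 561 closed regions 206 (36.7%, beside 43.9% elsewhere) overlapped no CF peak, and 186 (33.2%, beside 28.2%) overlapped a peak in all 7 lists.

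Opened regions did not sit among neighbours that were all higher in CF. Of the 166 nearest neighbours that were not opened themselves, 80 (48.2%) were below the rest, beside 70.5% of all regions on the 4 scaffolds, and 11 were closed. Elsewhere 2700 of 6875 such neighbours (39.3%) were below it. Neighbours share a window with the opened region that picked them, so these shares have no test. On GL896904 the neighbours had a median change of 0.15 and on GL896929 of −0.16.

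The 3 regions with the largest fitted opening on each scaffold had at most 20 reads in any WT library, apart from 1 region of GL896923. In 9 of these 12 regions at least 1 WT library stood at 1 read, the lowest number in the matrix, so their fold changes depend on the pseudocount and their order is not firm. The largest change, 4.28 ± 0.42 (SE) on the log2 scale, was at 5670211 to 5671067 on GL896929, a region of 857 bp. It had 192, 265 and 244 reads in the CF libraries and 4, 7, 3 and 5 in the WT libraries. All 7 neighbours within 100 kb were below the rest, so it ran against all of them. Second on this scaffold was 10400039 to 10401044, with 166, 212 and 254 reads in CF and 5, 20, 2 and 2 in WT and a change of 4.11 ± 0.49 (SE). Of its 9 neighbours 7 were below the rest. The remaining named region, at 8991679 to 8992191, changed by 2.94 ± 0.69 (SE), and it was no longer called without CF replicate 1 or CF replicate 3, at changes of 2.78 and 2.79.

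On GL896901 the region at 19031717 to 19032345 had 108, 130 and 152 reads in CF and 8, 9, 1 and 2 in WT, a change of 3.74 ± 0.55 (SE). It lay in a window with a median of −0.65, and 10 of its 12 neighbours were below the rest. The region at 16657740 to 16658816, with 131, 87 and 101 reads in CF and 5, 18, 1 and 1 in WT, had higher surroundings, since only 3 of its 11 neighbours were below the rest. The other named region of this scaffold, at 9667461 to 9668092, changed by 3.70 ± 0.64 (SE).

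On GL896904 the most opened region, at 22561755 to 22562361, had 93, 123 and 163 reads in CF and 14, 4, 2 and 1 in WT, a change of 3.71 ± 0.63 (SE). The region at 25648305 to 25648918, with 55, 37 and 92 reads in CF and 3, 9, 1 and 1 in WT, lay inside the stretch above the rest described before, and 2 of its 9 neighbours were below it. By contrast, the region at 7588851 to 7589520 changed by 3.06 ± 0.70 (SE) inside the second lowest window of the scaffold, where 8 of its 9 neighbours were below the rest, at a median of −1.69. It was no longer called without CF replicate 3, at a change of 2.94.

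GL896923 had the region with most CF reads among the 12 named opened ones, at 15656623 to 15657431 and within the last 24 regions after its strongest split. Its reads were 396, 336 and 421 in CF and 55, 28, 9 and 24 in WT, and its change was 2.74 ± 0.33 (SE). It was also the only 1 of the 12 that overlapped a peak in a WT list. The other named opened regions of this scaffold, at 2224826 to 2225324 and 12134496 to 12134984, changed by 2.85 ± 0.73 and 2.77 ± 0.69 (SE), each with a WT replicate 1 of 16 reads and 2 WT libraries at 1 read. The first of them was not called with any CF library left out, at changes of 2.98, 2.84 and 2.74, and the other was not called without CF replicate 1 or CF replicate 2, at 2.70 and 2.62.

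The most closed region of each scaffold was the reverse, with a peak in all 4 WT lists and in no CF list. On GL896901 it was at 26173719 to 26174289, with 12, 5 and 3 reads in CF and 97, 195, 48 and 86 in WT, a change of −4.90 ± 0.44 (SE). It lay in the highest window of that scaffold. On GL896904 it was at 9346334 to 9346885, with 13, 7 and 11 reads in CF and 124, 187, 93 and 96 in WT, a change of −4.61 ± 0.35 (SE). There 33 of 35 neighbours within 100 kb were below the rest. The regions at 5233590 to 5233985 on GL896923 and at 8722237 to 8722811 on GL896929 changed by −3.59 ± 0.59 and −4.19 ± 0.40 (SE). Every CF library lay below every WT library in these 4 regions, and the reverse held in the 12 opened ones, which was part of how the 16 were chosen.

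**Figure D5:**
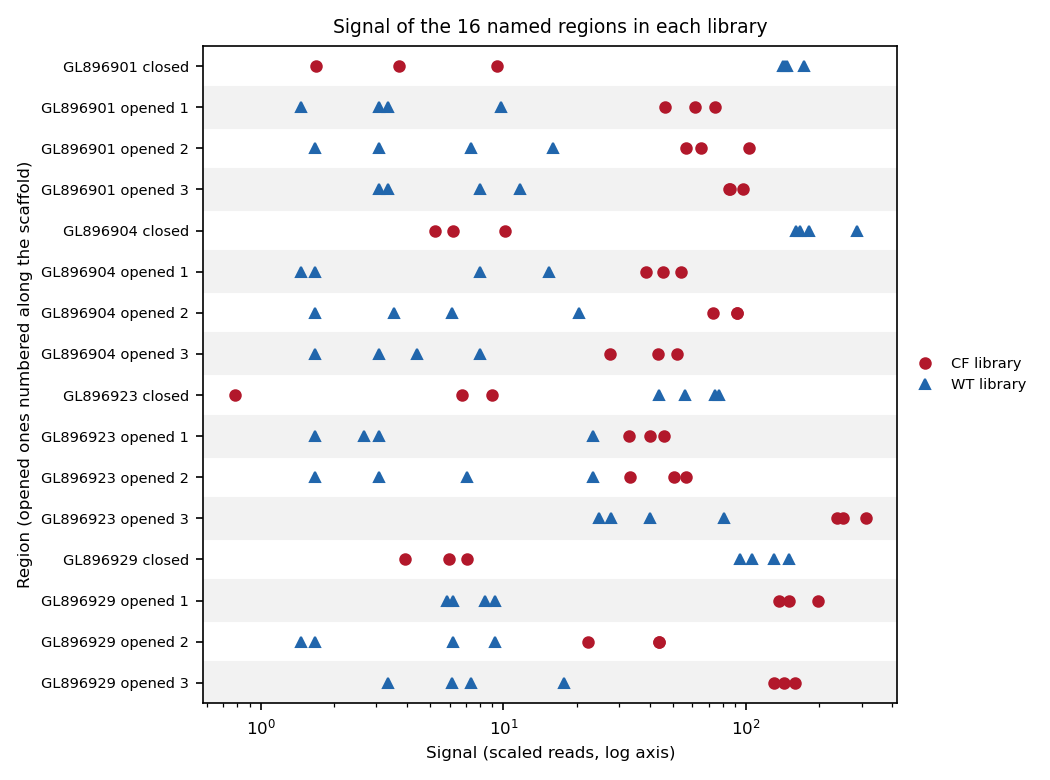
Signal of the 16 named regions in each library on a log axis, with red circles for the 3 CF and blue triangles for the 4 WT libraries. Opened regions are numbered in order along their scaffold. CF and WT libraries do not overlap in any row, with CF to the right in the 12 opened and to the left in the 4 closed regions.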

How the data were processed

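Bulk ATAC-seq libraries of 3 CF and 4 WT cultures were compared. The authors trimmed 150 bp paired reads with Trimmomatic, aligned them to MusPutFur1.0 with Bowtie 2, called peaks with MACS2 and built regions with DiffBind. Peak names carry the word dedup, and a shift of read ends for the transposase was not given in the sources used here. Each deposited signal value equalled whole reads times a factor per library for 100% of values, within 0.001 reads, so depth is known. No value was below 1 read. Deposited peak lists also hold a score, a fold enrichment and −log10 p and q values, which were not used beyond peak positions. Region starts lay 1 base before peak starts, and positions are counted from 1. For 7 of 7 matrix columns the best matching list had the same genotype, but for 1 of 7 the same number, so lists and columns are not joined by number.

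Regions were tested with limma 3.58.1 (R 4.3.3, mean trend, genotype as the term) on log2(signal + 1) over 95129 regions with Benjamini-Hochberg adjustment. The pseudocount of 1 understates changes of regions with few reads. Named regions are, per scaffold, the 3 opened with the largest and the 1 closed with the most negative change among those without overlap, the lowest and highest window, and the longest run above the rest. The members, lists and tests were chosen with earlier results of these data known. The fits were tested on simulated data. Alternatives used edgeR 4.0.16, DESeq2 1.42.0, other scalings, pseudocounts, filters and windows, the replicate number as a block, and leaving out single libraries. Thinning and like-signal classes (20) were added after the data were seen. Python 3.11.15, numpy 2.4.6, pandas 2.3.3 and matplotlib 3.10.9 were used. No genome or annotation of MusPutFur1.0 was used here, so regions have no gene names.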

Additional observations from a re-analysis of the deposited data

Results flagged for a closer look

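Of 32 results searched for a library far from the others of its group, 1 stood out. The WT replicate 3 list placed 1.54% of its peaks on GL896901, against 1.61% to 1.62% in the other WT lists. Its gap to the nearest list was 0.875 of the whole range of the group, which chance alone passes in about 1 of 20 groups. The list still lay above the 3 CF lists, the highest of which was at 1.4%.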

How the results depend on the processing

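Median changes of the 4 scaffolds stayed negative under all 16 alternatives. With all libraries kept, values that moved by more than 1 SD of the libraries were, on GL896901, −0.41 with a mean log2 signal above 5, −0.32 with a pseudocount of 5 and −0.42 as a mean over regions, on GL896904 −0.42 with a pseudocount of 5 and −0.44 with thinned reads, and on GL896923 −0.45 over regions with a peak in all 7 lists. Leaving out each library gave ranges of −0.41 (without CF replicate 1) to −0.34 on GL896901, −0.52 (without WT replicate 3) to −0.46 on GL896904, −0.60 to −0.50 on GL896923 and −0.60 to −0.50 on GL896929. The share of windows below the rest without overlap ran from 61.1% in 500 kb windows (12.9% elsewhere) to 80.0% in 2 Mb windows (9.63% elsewhere), and from 65.3% to 71.6% with a library left out. The difference between beginning and end of a scaffold had few ways to pass: a single scaffold at the smallest exact permutation p of 0.0286 adjusts to 0.114, and with a library left out no p under the threshold exists, so its failure under the alternatives says nothing about stability. It turned on GL896923 to 0.0071 with parts of equally many regions and to 0.025 against regions of like signal, and with a library left out it ranged from −0.051 to 0.0012 on GL896923, from −0.11 to 0.025 on GL896929, from 0.09 to 0.24 on GL896901 and from −0.19 to −0.07 on GL896904. Opened regions numbered 174 with library size alone and 219 with the scaffolds centred, and 28 to 124 with a library left out (beside 1.43% to 5.35%). Closed regions numbered 333, 274 and, past a log2 change of 2, 248 (beside 2.96% of all regions), and 386 to 626 with a library left out (beside 3.96% to 7.28%). On the recovered reads edgeR called 118 opened and 632 closed regions of the 4 scaffolds (beside 5.41% and 7.3% of all regions), and DESeq2 113 and 711 (beside 5.4% and 8.56%). The cause of these shifts was not tested.

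The labels number donors within each genotype. Deviations of same-numbered libraries correlated at −0.02 to 0.08, and those of differently numbered ones at −0.09 to 0.05. The pairs numbered 1 and 2, at 0.08 and 0.07, stood above every differently numbered pair, and the pair numbered 3, at −0.02, did not. These values do not settle whether the numbers pair the libraries, and the main fit treated them as unpaired. With the replicate block 107 regions were opened and 592 closed, beside 5.26% and 6.65% of all regions. Of 3 numbered CF libraries, 2 correlated best with the WT library of their own number. The 16 named regions were called in 248 of 256 fits, and their direction was largely fixed by how they were chosen.

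The contrast rests on 3 against 4 libraries, CF libraries were deeper, and a count of 1 read is the lowest value, so fold changes of regions near it are imprecise and their order is not firm.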
